A study of Mus musculus with 8 samples.

Results

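Colec12 is 1 row of the 49585 rows of a count table of mouse leukemia cells, and it was selected on a measured value, the difference of its counts between the 2 genotypes of the study. Colec12 encodes a scavenger receptor of the cell surface, a membrane protein with a collagen-like stalk and a C-type lectin domain at its outer end. The row carries the identifier ENSMUSG00000036103.8. In GENCODE M21 the gene, there with identifier version ENSMUSG00000036103.9, lies on the plus strand of chromosome 18 from 9707595 to 9882644 in GRCm38, the assembly also called mm10. It spans 175050 bases, of which 8725 lie in 11 exon blocks.

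The cells are labelled MA9 leukemia from bone marrow. The name MA9 usually stands for MLL-AF9, a fusion oncogene of acute myeloid leukemia, and both genotypes share it. The control cells, Gata2 f/f, carry Gata2 alleles flanked by recombination sites, and the Gata2 KO cells, labelled Gata2 -/-, have lost the gene. The Gata2 protein is a DNA-binding regulator that hematopoietic stem cells and their early progeny depend on. All cells were grown in IMDM medium with 15% serum and 3 cytokines, SCF at 20 ng/mL, IL-6 at 10 ng/mL and IL-3, and polyadenylated RNA was sequenced. Each genotype had 4 libraries numbered 1 to 4. The Cre, the age of any animal and the origin of the replicates (separate animals, separate cultures or neither) are not stated in the labels. All p-values therefore rest on the spread among these libraries, which may be technical.

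As background, scavenger receptors bind modified lipoproteins, microbial surfaces and cell debris and carry them into the cell. The lectin domain of the Colec12 protein, also known as collectin placenta 1, binds sugars on glycoproteins and on yeast and bacteria. The protein is best known from vascular endothelium and stromal cells. It belongs both to the class A scavenger receptors, with the macrophage receptors Msr1 and Marco, and to the collectins, with the soluble mannose-binding lectins and surfactant proteins.

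Library totals ran from 1610369 to 6237748 counts, and both libraries numbered 4 were the deepest of their genotype. The names of many rows could not be taken at face value. Over all 8 libraries Actb had 10 counts and B2m had 0, although every nucleated mouse cell expresses both genes. Levels are given as CPM, the count per 1000000 counts of the library. Of 512 rows named for ribosomal proteins, proteasome subunits and similar housekeeping families, 97 (18.9%) reached 20 CPM in the pooled libraries. The targeted gene did not check the genotype labels: the Gata2 row held 0, 0, 1 and 1 counts in Gata2 f/f replicates 1 to 4 and 2, 0, 0 and 0 in Gata2 KO replicates 1 to 4. The name of the Colec12 row was therefore checked first against the genes around it.

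Up to 0.843 Mb beyond Colec12 most rows around it were counted as their names would have it, with Abhd3 (1.44 CPM) as an exception. Thoc1, a subunit of the complex that couples transcription to export of messenger RNA, is the next protein-coding gene and starts 0.0753 Mb beyond Colec12. It had 1035, 798, 1016 and 2421 counts in Gata2 f/f replicates 1 to 4 and 840, 862, 1617 and 2280 in Gata2 KO replicates 1 to 4. Rock1, a kinase that drives actomyosin contraction, had 356, 376, 507 and 3073 counts in Gata2 f/f and 418, 523, 876 and 3396 in Gata2 KO. Esco1, an acetyltransferase of the cohesin ring, had 280, 209, 379 and 1249 counts in Gata2 f/f and 306, 289, 599 and 1217 in Gata2 KO. All of these rows were well counted in every library of both genotypes. Mib1, a ubiquitin ligase that activates Notch ligands, had 731, 678, 881 and 3554 counts in Gata2 f/f and 735, 876, 1689 and 3159 in Gata2 KO.

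On the other side, Ccny, a cyclin of the cell membrane and the nearest broadly used gene before Colec12, ends 0.257 Mb away and was at 741 CPM in the pooled libraries. From the first protein-coding gene of the chromosome to Mib1, a list of broadly expressed genes names 15 rows, and 14 of them lay at 20 CPM or more. They ran from Crem at 26.4 CPM to Usp14 at 1485 CPM. The exception was Abhd3, at 1.44 CPM, which lies between Snrpd1 (894 CPM) and Mib1. Before Colec12, some rows named for genes of restricted use were at or near 0. Cetn1, a centrin of the male germ line and the nearest gene before Colec12, had 0 counts, as had the vomeronasal receptor Vmn1r238 and the lysozyme-like gene Lyzl1, while the gap junction gene Gjd4 lay at 0.0776 CPM. Not all such rows were empty, since Jcad, a gene of endothelial cell junctions, lay at 59.1 CPM. After Colec12 and up to Mib1 the rows under 20 CPM were Greb1l, at 1.24 CPM, and Abhd3.

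Beyond Mib1 the picture changed. Of 14 further genes of that list, 4 reached 20 CPM and 8 lay under 1 CPM, among them Riok3 (0.349 CPM) and Rbbp8 (0.116 CPM). The 8 also include Mep1b (0.349 CPM), a gene of restricted use, whose low count does not bear on the names. Over all protein-coding rows other than Colec12, 21 of 32 (65.6%) reached 20 CPM up to Mib1, against 2 of 23 (8.70%) from there to 20 Mb and 50 of 449 (11.1%) further on. Colec12 thus lies inside the stretch of this chromosome in which most broadly expressed genes of the list were well counted, and Mib1, the last gene of it, starts 0.843 Mb beyond its end. The extent of the stretch was read from the counts themselves. Trappc8, a vesicle tethering protein and 1 of the 4, rose by 0.63 in log2 units (edgeR adjusted p = 0.0255), a call lost on leaving out any 1 of 4 libraries, replicates 1 and 2 of Gata2 KO and replicates 1 and 3 of Gata2 f/f (highest adjusted p 0.0822). The reason why names and counts part beyond Mib1 was not tested.

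**Figure D1:**
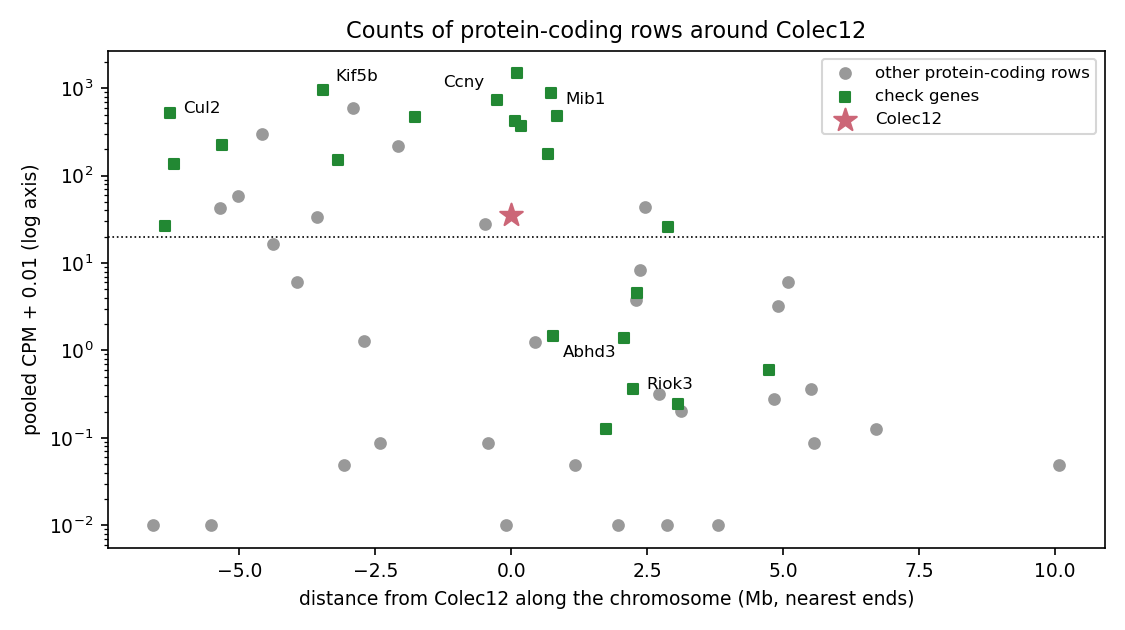
Pooled CPM of the 8 libraries (plus 0.01, log axis) for protein-coding rows of chromosome 18 that start within its first 20 Mb, against their distance from Colec12 in Mb. Squares are the broadly expressed genes used as a name check, the star is Colec12, the dotted line marks 20 CPM, and to the right of Mib1 most squares drop below it.

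Colec12 was low in every Gata2 f/f library and high in every Gata2 KO library. Gata2 f/f replicates 1 to 4 held 6, 9, 12 and 30 counts of Colec12. Against the library totals these are 2.90, 5.59, 5.62 and 5.47 CPM. Every Gata2 f/f library lay above the floor of 3 counts, the number that a count of 0 still allows and which corresponds to 0.481 to 1.86 CPM over the 8 libraries. Gata2 KO replicates 1 to 4 held 110, 162, 268 and 330 counts, or 56.6, 75.1, 64.9 and 52.9 CPM. The lowest Gata2 KO library was 9.41 times the highest Gata2 f/f library, so the genotypes did not overlap.

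Colec12 thus averaged 4.90 ± 1.33 CPM (SD, n = 4) in the Gata2 f/f libraries against 62.4 ± 9.83 CPM (SD, n = 4) in the Gata2 KO libraries, a 12.7-fold difference. In edgeR, with normalization by trimmed mean of M values (TMM), the log2 fold change, Gata2 KO minus Gata2 f/f, was 3.67 ± 0.22 (SE). These values chose the gene and are given as a description, without a test. Of 6580 rows tested, 822 (12.5%) passed an adjusted p of 0.05 in the same contrast, and 711 (10.8%) had all Gata2 KO libraries above all Gata2 f/f libraries, while 562 (8.54%) had them all below. With RNA from whole cultures, more cells that express Colec12 and more Colec12 RNA per cell cannot be told apart.

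**Figure D2:**
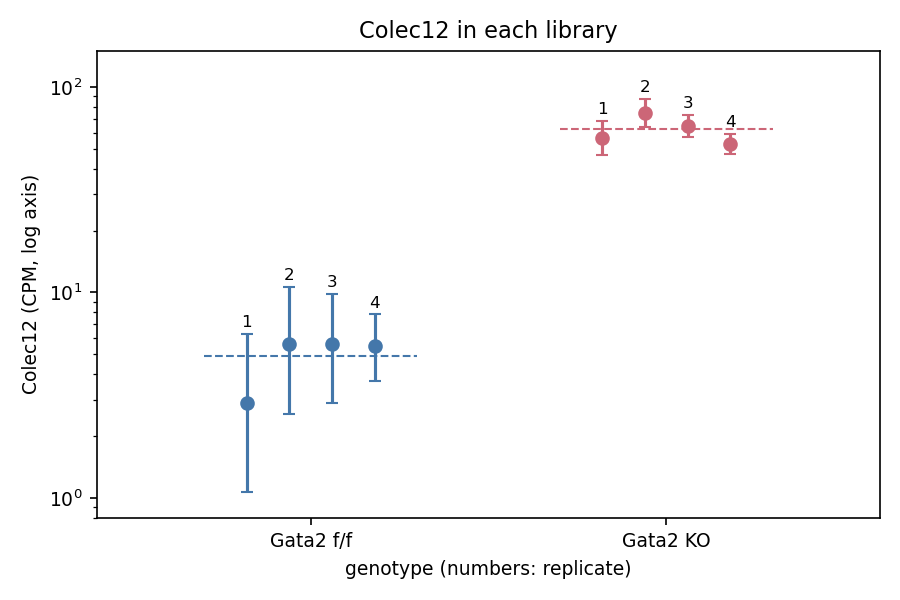
Colec12 in CPM (log axis) in each library, by genotype, with exact 95% Poisson intervals for counting error as bars, replicate numbers above them and the genotype mean as a dashed line. The Gata2 f/f libraries lie between 2.90 and 5.62 CPM and the Gata2 KO libraries between 52.9 and 75.1 CPM.

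Within Gata2 f/f the spread of Colec12 between libraries was no wider than counting error. The exact 95% Poisson interval was 1.06 to 6.31 CPM in replicate 1 and 3.69 to 7.82 CPM in replicate 4, and it held 5.59 CPM, the value of replicate 2, in both. These intervals cover counting error only. The coefficient of variation between the 4 libraries was 27.2%, against a mean of 30.3% from counting alone. Within Gata2 KO the spread was wider than counting error, 15.8% between libraries, against 7.25%. There replicate 2, with an interval of 63.9 to 87.5 CPM, lay above replicate 4, with 47.3 to 58.9 CPM.

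The genotypes share replicate numbers, and the difference was in the same direction in all 4 numbers. The ratio of Gata2 KO to Gata2 f/f was 19.5 for the libraries numbered 1, 13.4 for number 2, 11.5 for number 3 and 9.66 for number 4. The largest ratio rests on the 6 counts of Gata2 f/f replicate 1. With the replicate number as a block the log2 fold change was 3.58 ± 0.16 (SE). Over 16 other ways of scaling, fitting or leaving out libraries it lay between 3.54 and 3.83.

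The difference was of similar size on scales that leave out the library totals. Set against Thoc1 next to it, Colec12 had 5.80, 11.3, 11.8 and 12.4 counts per 1000 Thoc1 counts in Gata2 f/f replicates 1 to 4. In Gata2 KO replicates 1 to 4 it had 131, 188, 166 and 145. Against the summed counts of the 15 check genes up to Mib1, Colec12 was at 66.4 ± 16.8 per 100000 in Gata2 f/f and 943 ± 168 in Gata2 KO (SD, n = 4 each), 14.2-fold higher. The summed check genes took 0.694% to 0.783% of each Gata2 f/f library and 0.637% to 0.705% of each Gata2 KO library.

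On a scale of CPM per kilobase of exon, which allows levels of different genes to be compared, Colec12 went from 0.561 in Gata2 f/f to 7.15 in Gata2 KO. Among the 33 protein-coding rows of its stretch this placed it at rank 24 in Gata2 f/f, below the transcription factor gene Zeb1 (0.785 CPM per kilobase), and at rank 19 in Gata2 KO. At its Gata2 KO level it stood beside Jcad at 7.29 CPM per kilobase and Crem, a transcription factor of cAMP signalling at 5.31. It remained well below Thoc1, at 44.5 CPM per kilobase in Gata2 KO. In CPM, which favours long genes, the Colec12 row ranked 6436 of all rows in Gata2 f/f and 2753 in Gata2 KO.

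Other rows inside the gene held few counts in both genotypes. A pair of processed pseudogenes lie within introns of Colec12 and touch none of its exons. Gm17430, on the minus strand, had 22 counts over the 4 Gata2 f/f libraries and 34 over the 4 Gata2 KO libraries. Gm7497, on the plus strand, had 17 and 35, and the means of 1.44 ± 0.811 and 2.08 ± 1.22 CPM (SD, n = 4 each) lay within each other's spread. Neither had enough counts to be tested. The library kit does not mark strand, so reads from the opposite strand of Colec12 cannot be told from its own.

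The genes on either side of Colec12 did not share its difference. Thoc1 was at 500, 496, 476 and 442 CPM in Gata2 f/f replicates 1 to 4 and at 432, 399, 392 and 366 CPM in Gata2 KO replicates 1 to 4. The Gata2 KO libraries were all below the Gata2 f/f libraries, by a small margin. Its log2 fold change was -0.25 ± 0.12 (SE, adjusted p = 0.205 by the quasi-likelihood test of edgeR, Benjamini-Hochberg adjusted over all rows tested, and 0.00304 with the replicate block), so its sign is opposite to that of Colec12. Thoc1 and Usp14, a deubiquitinating enzyme of the proteasome, overlap at their ends on opposite strands, so some of their reads cannot be told apart. The difference of Usp14 was -0.25 ± 0.13 in log2 units (SE, edgeR adjusted p = 0.252, and 0.00245 with the block). Snrpd1, a core protein of the spliceosome beside Mib1, was at -0.30 ± 0.16 (SE, edgeR adjusted p = 0.271, and 0.000587 with the block).

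Rock1 averaged 301 ± 176 CPM in Gata2 f/f against 304 ± 161 in Gata2 KO (SD, n = 4 each). In both genotypes its highest library was number 4, at 561 and 544 CPM. Esco1 was at 168 ± 45.5 CPM in Gata2 f/f and 158 ± 26.6 in Gata2 KO, and Mib1 at 459 ± 130 and 425 ± 56.1 (SD, n = 4 each). For Rock1, Esco1 and Mib1 the genotypes overlapped, and the adjusted p in edgeR was 0.975, 0.851 and 0.789. Of these 3 genes and Thoc1, 0 passed in edgeR, against 12.5% of all rows tested. An unadjusted edgeR p under 0.05 was seen for 0 of them, against 1711 of 6580 rows tested. In DESeq2 0 of them passed, and 946 of the 49585 rows of the whole table did. Of the 49585, 21625 had 0 counts in every library and were not tested, so that share is no background for well-counted rows. Greb1l, at 1.24 CPM in the pooled libraries, and the pseudogene Gm2531, at 0.97 CPM, were too low to be tested.

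Over the whole stretch up to Mib1, 23 rows besides Colec12 were tested and their median log2 fold change was -0.03, against -0.01 over all rows tested. In edgeR 2 rose (8.97% of all rows tested did) and 2 fell (3.53% did). With the replicate block 3 rose and 7 fell, where 18.8% and 16.7% of all rows did. Arhgap12, a GTPase-activating protein, lay at 15.5, 13, 17.8 and 20.3 CPM in Gata2 f/f replicates 1 to 4 and at 29.9, 34.3, 54.0 and 50.2 CPM in Gata2 KO. It rose without overlap, by 1.35 ± 0.21 in log2 units (SE, edgeR adjusted p = 0.00161). Map3k8, a kinase that links inflammatory receptors to ERK signalling, rose from 20.6 ± 13.4 to 49.6 ± 17.9 CPM (SD, n = 4 each, adjusted p = 0.0409, edgeR). Its genotypes overlapped, since Gata2 f/f replicate 4 was at 40.3 CPM and Gata2 KO replicate 3 at 35.8 CPM, and the call did not survive the omission of any 1 library except Gata2 KO replicate 3 or Gata2 f/f replicate 4 (edgeR adjusted p = 0.0637 to 0.113), nor library totals in place of TMM (0.0689).

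Zeb1, a repressor known from epithelial-mesenchymal transition, fell from 8.06 ± 2.42 to 3.16 ± 1.09 CPM (SD, n = 4 each), by -1.28 ± 0.29 in log2 units (SE, edgeR adjusted p = 0.014). It passed the expression filter only through its Gata2 f/f libraries, where it was higher, since its Gata2 KO libraries lay at 2.06 to 4.65 CPM. Its call rests on that selection and is given as a description. Without Gata2 KO replicate 3 the adjusted p of Zeb1 was 0.0506. Mpp7, a scaffold protein of cell junctions, fell from 278 ± 22.1 to 189 ± 17.9 CPM (SD, n = 4 each), by -0.54 ± 0.12 in log2 units (SE, edgeR adjusted p = 0.0138). Without Gata2 KO replicate 3 the adjusted p of Mpp7 was 0.055, and without Gata2 f/f replicate 3 it was 0.0502. Fzd8, a Wnt receptor 0.489 Mb before Colec12, was at 24.4 ± 2.39 and 30.3 ± 1.61 CPM and did not pass (adjusted p = 0.199, edgeR, and 0.0521 with the block). Its Gata2 KO libraries all lay above its Gata2 f/f libraries, as in 10.8% of all rows tested, by 0.33 ± 0.15 in log2 units (SE). With Zeb1 left aside, changed rows of the stretch still went both ways, since Arhgap12 rose and Mpp7 fell. The value of Colec12 had the largest size among the 24 rows tested there, a place that follows largely from its selection on this difference.

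**Figure D3:**
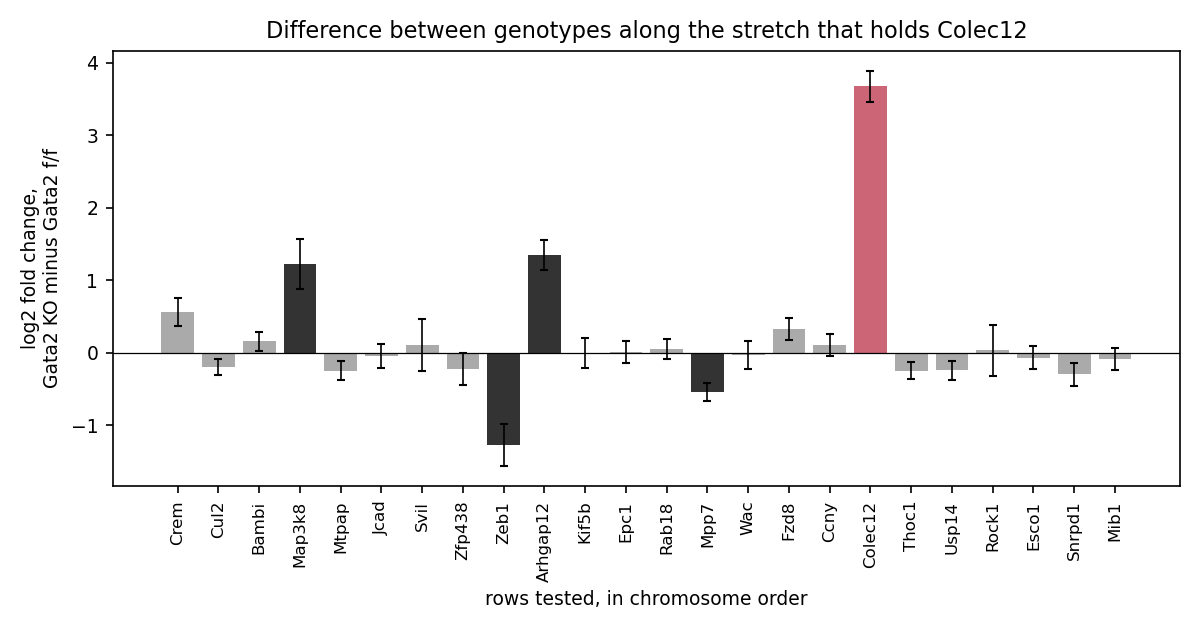
Log2 fold change, Gata2 KO minus Gata2 f/f, with its SE, for the 24 rows tested from the start of chromosome 18 to Mib1, in chromosome order. Dark bars passed an adjusted p of 0.05 in edgeR, grey bars did not, and Colec12, at 3.67 and coloured apart, was chosen for its value and carries no test.

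Rows named for related receptors can be read only as rows, since they lie outside the stretch and the check of their names did not settle them. It counted rows of the housekeeping families within 3 Mb of each. Of these, 1 of 4 reached 20 CPM for Scarf1, 1 of 5 for Mertk and 1 of 3 for Lrp1. Scarb2 had 0 such rows near it. Of 27 other scavenger receptors, 19 lay under 1 CPM in the pooled libraries and 4 had enough counts to be tested. The class A receptors were nearly empty: Msr1 had 6 counts over all 8 libraries, Scara3 and Scara5 had 1 each and Marco had 0. Mrc1, the mannose receptor of macrophages, was too low for the edgeR filter and was chosen for description, like Stab1, after its values were seen. It had 2, 0, 3 and 1 counts in Gata2 f/f replicates 1 to 4 and 3, 16, 37 and 44 in Gata2 KO replicates 1 to 4, or at most 1.41 CPM in Gata2 f/f and 1.54, 7.41, 8.96 and 7.05 CPM in Gata2 KO. All Gata2 KO libraries of Mrc1 lay above all Gata2 f/f libraries, replicate 1 only just, as for Colec12 in direction. Mrc1 passed in DESeq2 and in edgeR without the filter, but it was chosen on these same values, so these calls are no test of it. Stab1, an endocytic receptor of macrophages and sinusoidal endothelium, was at 0.616 ± 0.606 CPM in Gata2 f/f against 2.2 ± 0.88 in Gata2 KO (SD, n = 4 each), with overlap, and did not pass in DESeq2 (adjusted p = 0.232).

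The 4 tested scavenger receptors, Scarb2, Scarf1, Lrp1 and Mertk, had a median log2 fold change of -0.18, against -0.01 over all rows tested. Of these, 0 passed in edgeR, where 12.5% of all rows did, and 0 passed in DESeq2, where 946 rows of the whole table did. An unadjusted edgeR p under 0.05 was seen for 1 of them, against 1711 of 6580 rows tested. Scarb2, a lysosomal receptor, was at 43.7 ± 8.03 CPM in Gata2 f/f and 33.4 ± 6.73 in Gata2 KO (adjusted p = 0.179, edgeR, and 0.0121 with the block). Scarf1, a receptor of endothelial cells and phagocytes, was at 20.4 ± 5.0 and 26 ± 3.33 CPM (adjusted p = 0.22, edgeR, and 0.0265 with the block). Lrp1, a large endocytic receptor, was at 11 ± 3.86 and 11.3 ± 3.63 CPM, and Mertk, a receptor for dying cells, at 7.83 ± 2.66 and 5.46 ± 1.28 CPM (SD, n = 4 each).

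In the list of collectins and the lectin pathway of complement, 10 of 21 rows had 0 counts in all libraries, among them Colec10, Colec11, Mbl1 and Mbl2. Of the 3 tested rows, C2, C3 and Masp2, 0 passed in edgeR (12.5% of all rows did) and 0 in DESeq2 (946 rows of the whole table did). An unadjusted edgeR p under 0.05 was seen for 0 of them, against 1711 of 6580 rows tested. C2, a complement protease, was at 123 ± 20.1 CPM in Gata2 f/f and 125 ± 26.6 in Gata2 KO, C3, the central complement component, at 37.1 ± 8.47 and 36.3 ± 12.2, and Masp2, the protease of mannose-binding lectin, at 6.18 ± 3.02 and 7.25 ± 3.13 CPM (SD, n = 4 each). Of 18 myeloid C-type lectins 1 was tested. The row Clec7a, named for the beta-glucan receptor dectin-1, was at 66.7, 75.1, 79.6 and 79.6 CPM in Gata2 f/f replicates 1 to 4 and at 26.8, 34.3, 38.0 and 43.3 CPM in Gata2 KO. It fell without overlap (3.53% of all rows tested fell), by -1.05 ± 0.14 in log2 units (SE, edgeR adjusted p = 0.000596), opposite in sign to Colec12.

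Markers of other cell types were read the same way, as rows only, and their part in the Colec12 difference was not tested. Of the housekeeping-family rows within 3 Mb, 1 of 2 reached 20 CPM for Vwf and 2 of 3 for Ms4a2. For Pecam1 this was 0 of 2 and for Bgn 0 of 1. Of 15 monocyte and macrophage markers, 11 lay under 1 CPM and Cd68 had 0 counts. Their summed level was 73.2 to 86.9 CPM in Gata2 f/f and 73.1 to 108 CPM in Gata2 KO. The list also holds Mrc1, picked out above after its values were seen, whose Gata2 KO libraries lay above its Gata2 f/f libraries. Of the tested rows, Gpnmb and Spi1, 0 passed in edgeR (12.5% of all rows did) and 0 in DESeq2 (946 rows of the whole table did). An unadjusted edgeR p under 0.05 was seen for 1 of them, against 1711 of 6580 rows tested. Gpnmb, a glycoprotein of macrophages, was at 39.9 ± 2.46 and 53.7 ± 8.57 CPM (SD, n = 4 each, adjusted p = 0.0684, edgeR, and 0.00359 with the block), and Spi1, a myeloid transcription factor, had an adjusted p of 0.539.

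Of 20 stromal and endothelial markers, 10 lay under 1 CPM, and Cdh5 and Lum had 0 counts. Their summed level was 528 to 594 CPM in Gata2 f/f and 613 to 667 CPM in Gata2 KO, without overlap, and most of it came from Pecam1 and Bgn. Neither name was settled by the check of rows nearby. Of single rows tested, 10.8% had all Gata2 KO libraries above all Gata2 f/f libraries. Of the 6 tested rows 1 rose in edgeR, where 8.97% of all rows did. That was Vwf, named for von Willebrand factor, at 3.38, 5.59, 4.69 and 7.66 CPM in Gata2 f/f replicates 1 to 4 and at 7.72, 24.6, 47.9 and 43.6 CPM in Gata2 KO. Its lowest Gata2 KO library lay just above its highest Gata2 f/f library (adjusted p = 0.00391, edgeR). Pecam1, an adhesion molecule of endothelium and leukocytes, was at 261 ± 25.4 and 296 ± 27.6 CPM (SD, n = 4 each, adjusted p = 0.412, edgeR, and 0.0217 with the block), and Bgn, a matrix proteoglycan, at 144 ± 14.6 and 170 ± 13.5 CPM (adjusted p = 0.27, edgeR, and 0.00764 with the block). Pdgfra and Sparc, of mesenchymal cells, were at -0.07 ± 0.18 and -0.07 ± 0.13 in log2 units (SE, edgeR adjusted p = 0.863 and 0.813). Over the 6 tested rows the median log2 fold change was 0.06, against -0.01 over all rows tested.

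In a list of other lineages 15 of 18 rows lay under 1 CPM, with Pf4 and S100a8 at 0 counts. Their summed level was 1729 to 2843 CPM in Gata2 f/f and 1154 to 2193 CPM in Gata2 KO, nearly all of it from Ms4a2, a subunit of the IgE receptor of mast cells and basophils. Of the tested rows Ms4a2, Cd79a and Ltf, 0 passed in edgeR (12.5% of all rows did) and 0 in DESeq2 (946 rows of the whole table did). An unadjusted edgeR p under 0.05 was seen for 1 of them, against 1711 of 6580 rows tested. Ms4a2 was at 2445 ± 524 and 1611 ± 430 CPM (SD, n = 4 each, adjusted p = 0.141, edgeR, and 1.61e-06 with the block). The B cell row Cd79a and the neutrophil granule row Ltf had an adjusted p of 0.878 and 0.924.

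Rows closest to Colec12 in pattern were ranked by Pearson's r of log2 CPM over the 8 libraries, among the 5229 rows whose mean log2 CPM was 1 or more. The 5 closest were C9orf72 (r = 0.996), Prom1 (0.992), Anapc5 (0.99), Olfr645 (0.987) and Upb1 (0.984). They too can be read only as rows, since the check did not settle their names. Of the housekeeping-family rows within 3 Mb, 1 of 2 reached 20 CPM for C9orf72, 0 of 1 for Prom1 and 0 of 6 for Anapc5. For Olfr645 and for Upb1 this was 0 of 2. All 5 rows, like Colec12, had their Gata2 KO libraries above their Gata2 f/f libraries, as 10.8% of all rows tested did. That follows largely from the ranking, since Colec12 was chosen for its step between genotypes. C9orf72, named for a gene of endosomal traffic, was at 13.3 ± 2.81 CPM in Gata2 f/f and 48.5 ± 4.66 in Gata2 KO (SD, n = 4 each), which is 1.89 ± 0.18 in log2 units (SE). The changes of these 5 rows, between 1.22 for Olfr645 and 2.16 for Upb1 on the log2 scale, were smaller than that of Colec12. These correlations describe 8 libraries that share their genotypes and depths, and they carry no test.

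**Figure D4:**
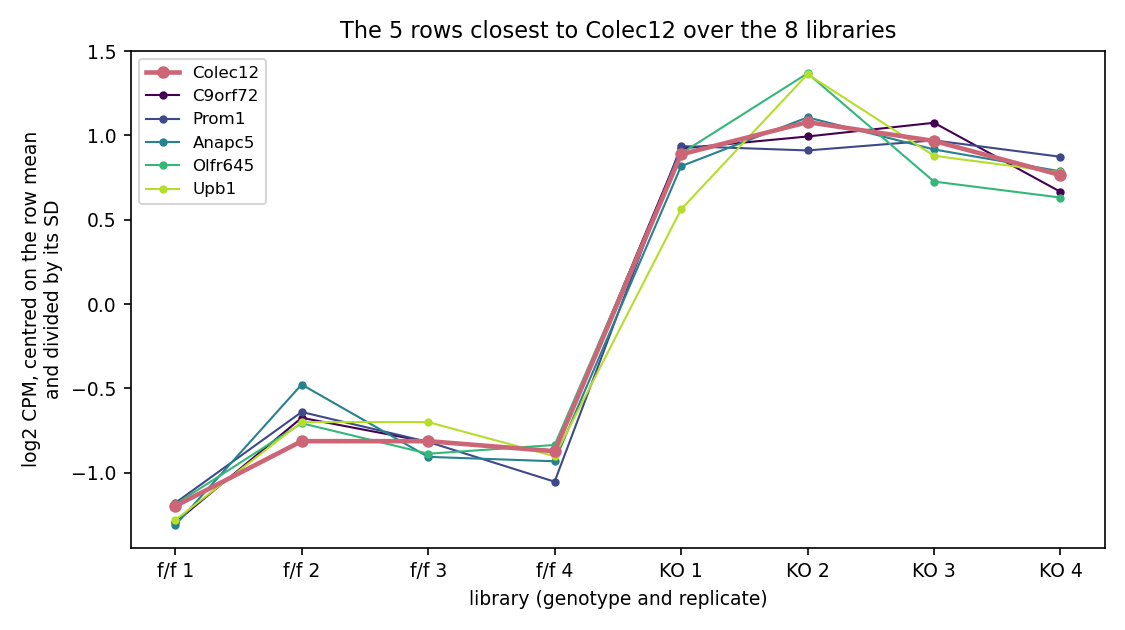
Log2 CPM of Colec12 and of the 5 rows closest to it over the 8 libraries, each centred on its own mean and divided by its SD, with the Gata2 f/f libraries on the left and the Gata2 KO libraries on the right. In all 6 rows Gata2 f/f replicate 1 is the lowest library, and the step between genotypes is the main feature, which follows largely from how the rows were ranked.

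When the genotype means were removed first, other rows came closest to Colec12: Nxph4 (r = 0.967), Olfr1319-ps1 (0.961), Bud31 (0.955), Me2 (0.952) and Lmbrd2 (0.952). Their names were not settled either. Of the housekeeping-family rows near them, 1 of 3 reached 20 CPM for Nxph4, 1 of 2 for Bud31 and 0 of 1 for Me2. Olfr1319-ps1 and Lmbrd2 had 0 such rows near them. None of these 5 passed in edgeR, their adjusted p lying between 0.236 for Lmbrd2 and 0.891 for Bud31, while Lmbrd2 passed with the replicate block (0.0376). C9orf72 kept an r of 0.928 on this scale. The deviations have 6 free values, and the 6 counts of Colec12 in Gata2 f/f replicate 1 weigh on them. The neighbours Thoc1, Rock1, Esco1 and Mib1 had an r between -0.14 and 0.16 with Colec12 on the same scale.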

How the data were processed

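Paired reads of 65 bp came from polyadenylated RNA, per the labels' protocols. The authors deposited 1 table of raw counts per Ensembl gene, with a column for each of 8 libraries that was matched through the sample labels. Per the submitters' processing notes the build was mm10 and kallisto, HTSeq and DESeq2 were used, with neither versions nor roles. Which annotation was counted is not given in the sources used here. Of 49585 rows, 49326 had a GENCODE M21 gene model, and 88.2% carried its identifier version.

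Per-library values are CPM by library total. The test on counts was that of edgeR 4.0.16, run in R 4.3.3 (TMM, factors 0.939 to 1.076; expression filter with a minimum count of 10; quasi-likelihood F-test with genotype alone; Benjamini-Hochberg adjustment over 6580 rows; threshold 0.05). Each SE was derived from the log2 fold change and the F statistic. DESeq2 1.42.0, library totals, no filter, a replicate block, leaving out both libraries numbered 4 and leaving out each library were alternatives. On simulated counts for 6580 rows the edgeR test recovered 71.2% of changes of 2-fold and 96.9% of changes of 4-fold.

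Deviations from the genotype means correlated across rows at 0.333, 0.213, 0.243 and 0.804 for libraries numbered 1, 2, 3 and 4, all over 0.1. The numbers, from the sample titles, were therefore taken to pair libraries in the ratios within numbers and in the block fit. What a number stands for is not stated, and the labels do not say that it pairs libraries. The main test therefore kept genotype alone, and the block fit, which calls more rows, is an alternative. Between different numbers the correlation was -0.47 to 0.182. Some of these also lay over 0.1, among them 0.182 for Gata2 f/f 1 with Gata2 KO 2 and 0.155 for Gata2 f/f 3 with Gata2 KO 1. The threshold of 0.1 thus does not by itself show that numbers 1, 2 and 3 pair libraries.

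The gene, the lists and the rules were chosen with earlier results of these data known. Named rows were Colec12, its neighbours from 1 Mb before it to Mib1, the tested rows of the stretch, list rows past the threshold with up to 4 further tested ones by CPM, and the 5 rows closest in pattern on each scale, leaving out Gm, Rik and clone names. Naming all tested rows of the stretch was added after their values were seen. No sequence is printed.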

Additional observations from a re-analysis of the deposited data

Results flagged for a closer look

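Of 116 groups of 4 libraries, 1 for each genotype of each named row, 11 held a library far from the other 3 by Dixon's ratio, where chance flags about 1 in 20. For Colec12 itself, Gata2 f/f replicate 1 lay at 2.90 CPM, against 5.47 to 5.62 in the other 3. That value rests on 6 counts. Leaving this library out gave a log2 fold change of 3.54. Beside Colec12, the libraries numbered 4 stood apart for Rock1, at 561 CPM in Gata2 f/f against 172 to 238 and at 544 CPM in Gata2 KO against 212 to 242. They also did for Svil, an actin-binding protein of the same stretch, at 470 CPM in Gata2 f/f against 138 to 181 and at 432 CPM in Gata2 KO against 183 to 207. The adjusted p of Svil was 0.899 in edgeR. Colec12 did not show this: its libraries numbered 4 were at 5.47 and 52.9 CPM, within or just below the range of the others.

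Among the other named rows, Abhd3 stood out at 1.24 CPM in Gata2 f/f replicate 2 (others 0.912 to 0.966), on few counts. C3 was at 54.5 CPM in Gata2 KO replicate 4 (29.2 to 31.5), Lrp1 at 16.8 CPM in Gata2 f/f replicate 4 (8.69 to 9.37) and Ms4a2 at 1667 CPM in Gata2 f/f replicate 4 (2598 to 2787). Olfr1319-ps1 was at 4.83 CPM in Gata2 f/f replicate 1 (7.45 to 7.85) and Olfr645 at 78.3 CPM in Gata2 KO replicate 2 (58.4 to 61.3).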

How the results depend on the processing

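The Colec12 log2 fold change of 3.67 moved by less than the spread between replicates under every alternative run, with 3.54 to 3.78 when 1 library was left out. Against the summed counts of the check genes, an alternative chosen after seeing the data, it was 3.83. Counts of calls moved more. With the replicate block 2339 rows passed (1237 higher, 1102 lower), without both libraries numbered 4 1437 (894 higher, 543 lower), and with both 1727 (1016 higher, 711 lower), against 822 (590 higher, 232 lower). With 1 library left out the count was 548 to 1103, with 420 to 722 higher and 120 to 381 lower. Of Thoc1, Rock1, Esco1 and Mib1, 1 (Thoc1) passed with the block, also without both libraries numbered 4. In the stretch up to Mib1, 4 of the 23 tested rows besides Colec12 passed (12.5% of all rows tested did) and 10 with the block (35.5% did). Without both libraries numbered 4 there were 7, with both changes 10, and with 1 library left out 2 to 4. The lowest count, 2, came without Gata2 KO replicate 3 and without Gata2 f/f replicate 3. In the receptor and marker lists 2 rows passed (12.5% of all rows tested did) and 8 with the block (35.5% did). Tested were 4 scavenger receptors, 3 collectin or complement rows, 1 C-type lectin, 2 macrophage, 6 stromal or endothelial and 3 other lineage rows. With no filter 4 passed and with 1 library left out 2 to 4, the highest without Gata2 f/f replicate 4. Of the 5 rows closest to Colec12, 0 were also among the 5 closest after removing genotype means. Other calls of named rows that the block changed stand beside them in the report or belong to Crem, Cul2 and Mtpap. The 6 to 30 counts of Colec12 per Gata2 f/f library limit its precision there. The causes of these changes were not tested.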
